A study of Mus musculus with 12 samples.

Results

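Transcript levels of 6 receptors that guide or tune the migration of inflammatory myeloid cells were examined in dendritic cells (DCs) grown from mouse bone marrow. The receptors were *Ccr1*, *Ccr2*, *Cx3cr1*, *Cxcr4*, *Ccrl2* and *Cmklr1*. They were picked out by symbol, and each matched 1 of the 55471 genes in the count table. All 6 passed the filter on low counts. The cells were grown from the marrow of adult female C57BL/6 mice in the presence of the cytokine GM-CSF. All 4 groups carried a retroviral short hairpin RNA (shRNA) from a vector with a human CD8 reporter and were sorted on that reporter. The hairpin targeted firefly luciferase (shControl) or *Ppargc1b* (sh*Ppargc1b*), which encodes the transcriptional co-activator PGC-1β, and the cells were then left unstimulated or given interferon-β (IFN-β), with a 6 h treatment. Each of the 4 groups held 3 libraries. The knockdown lowered its target without removing it and the labels do not say which hairpin against it was used. The labels do not say whether the 3 libraries of a group came from separate cultures or mice, so p-values measure only the spread between these libraries.

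Chemokine receptors span the membrane with several helices and signal through inhibitory G proteins when a chemokine binds. CCR2 brings monocytes out of the bone marrow towards CCL2, CCL7 and CCL12, and CCR1 binds CCL3, CCL5 and related chemokines at inflamed sites. CX3CR1 binds the membrane-tethered chemokine CX3CL1 and marks patrolling monocytes and many tissue phagocytes, while CXCR4 binds CXCL12 and retains cells in the marrow. CMKLR1 is the signalling receptor for chemerin, and CCRL2 binds chemerin without a known signal of its own and presents it to CMKLR1 on neighbouring cells. Here these genes were read as messenger RNA, and protein at the cell surface was not analysed. In a bulk library, fewer cells of a type and less RNA per cell cannot be told apart.

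In the GRCm38 build with the GENCODE M21 annotation, 4 of the receptors lie on chromosome 9. *Ccr1* (chr9:123962124-123968692, minus strand) and *Ccr2* (chr9:124101950-124113557, plus strand) are 133.3 kb apart, and *Cx3cr1* (chr9:119901616-120069879, minus strand) and *Ccrl2* (chr9:111054486-111057519, minus strand) lie elsewhere on the chromosome. *Cxcr4* is at chr1:128588199-128592293 and *Cmklr1* at chr5:113612354-113650426, both on the minus strand. Only *Cx3cr1* shared exon bases with another gene, 78 bases with the antisense transcript Gm33858. Whether the counting used strand was not given, so reads over those bases cannot be assigned with certainty.

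The bases before the start sites are shown for *Ccrl2*, the receptor with the largest response to IFN-β, for *Ccr1*, a receptor with the same upstream motif, and for *Cxcr4*, which was higher in the knockdown under both treatments. They were taken from RefSeq (GRCm38.p6), all on the minus strand, written 5′ to 3′ and ending at the base before the annotated start or the first annotated exon. The capitals mark the match to the NF-κB motif. The *Ccrl2* stretch is chr9:111057520-111057768, the *Ccr1* stretch is chr9:123968693-123968942 and the *Cxcr4* stretch is chr1:128592300-128592549.
Ccrl2: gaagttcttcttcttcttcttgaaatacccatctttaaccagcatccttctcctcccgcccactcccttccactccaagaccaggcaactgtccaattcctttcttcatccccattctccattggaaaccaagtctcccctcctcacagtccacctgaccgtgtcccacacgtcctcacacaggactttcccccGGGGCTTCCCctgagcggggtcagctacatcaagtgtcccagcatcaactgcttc
Ccr1: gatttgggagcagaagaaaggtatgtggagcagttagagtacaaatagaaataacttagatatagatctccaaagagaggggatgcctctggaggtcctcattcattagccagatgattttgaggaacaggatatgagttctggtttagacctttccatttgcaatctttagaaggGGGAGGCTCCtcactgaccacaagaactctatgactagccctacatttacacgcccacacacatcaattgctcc
Cxcr4: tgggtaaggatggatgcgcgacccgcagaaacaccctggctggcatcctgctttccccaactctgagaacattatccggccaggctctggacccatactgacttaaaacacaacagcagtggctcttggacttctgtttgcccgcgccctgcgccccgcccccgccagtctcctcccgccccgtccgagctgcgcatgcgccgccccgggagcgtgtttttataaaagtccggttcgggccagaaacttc
A motif search covered the 250 bases before all 8 annotated starts of the 6 receptors on both strands. The interferon-stimulated response element (GAAA, any 2 bases, then GAAA) was found before none of them, and 2.98% of all 32851 promoters of this length held it. The PU.1 site (GAGGAAGT) was also found before none of them, against 2.44% of all promoters. The NF-κB motif was found once before *Ccr1* and once before 1 of the 3 annotated starts of *Ccrl2*, against 7.25% of all promoters. No 2 of these matches overlapped. The windows before *Ccr2* and *Cx3cr1* lay over annotated exons for 233 and 250 of their 250 bases, so they were searched but are not shown.

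The libraries held 49919648 to 77726101 counts, and 18228 genes were tested. *Ppargc1b* was at 34.5 ± 1.94 CPM (a gene's counts relative to the TMM-scaled size of its library; SD, n = 3) in shControl cells left unstimulated and at 19.4 ± 0.851 CPM in the matching sh*Ppargc1b* cells, 56.3% of the control level (adjusted p = 3.25e-05). With IFN-β it was at 27.8 ± 3.93 and 18.6 ± 2.83 CPM, 67.2% of the control level (adjusted p = 0.000945). The groups did not overlap in either treatment, and the exact two-sided permutation test gave p = 0.1 each time, the smallest that 3 libraries against 3 allow. The dendritic marker *Cd209a* was close to absent, at 0.109 CPM in unstimulated shControl cells, while *Itgax* (949 CPM) and *Cd74* (2086 CPM) were abundant there, as were the macrophage markers *Csf1r* (1226 CPM) and *Cd68* (458 CPM).

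The first question was whether the knockdown changed the receptors, without and with IFN-β. *Ccr2* was lower and *Cxcr4* and *Cx3cr1* were higher in sh*Ppargc1b* cells under both treatments, and *Ccrl2* was lower with IFN-β. Of all 18228 genes, 23.6% passed an adjusted p of 0.05 between the hairpins without IFN-β, 12.4% higher and 11.1% lower, and 3 of the 6 receptors did. With IFN-β, 24.2% of all genes passed, 11.5% higher and 12.7% lower, and 4 of the 6 receptors did. The median log2 fold change of the 6 receptors was 0.06 and 0.02, beside 0.00 and -0.01 for all genes.

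**Figure D1:**
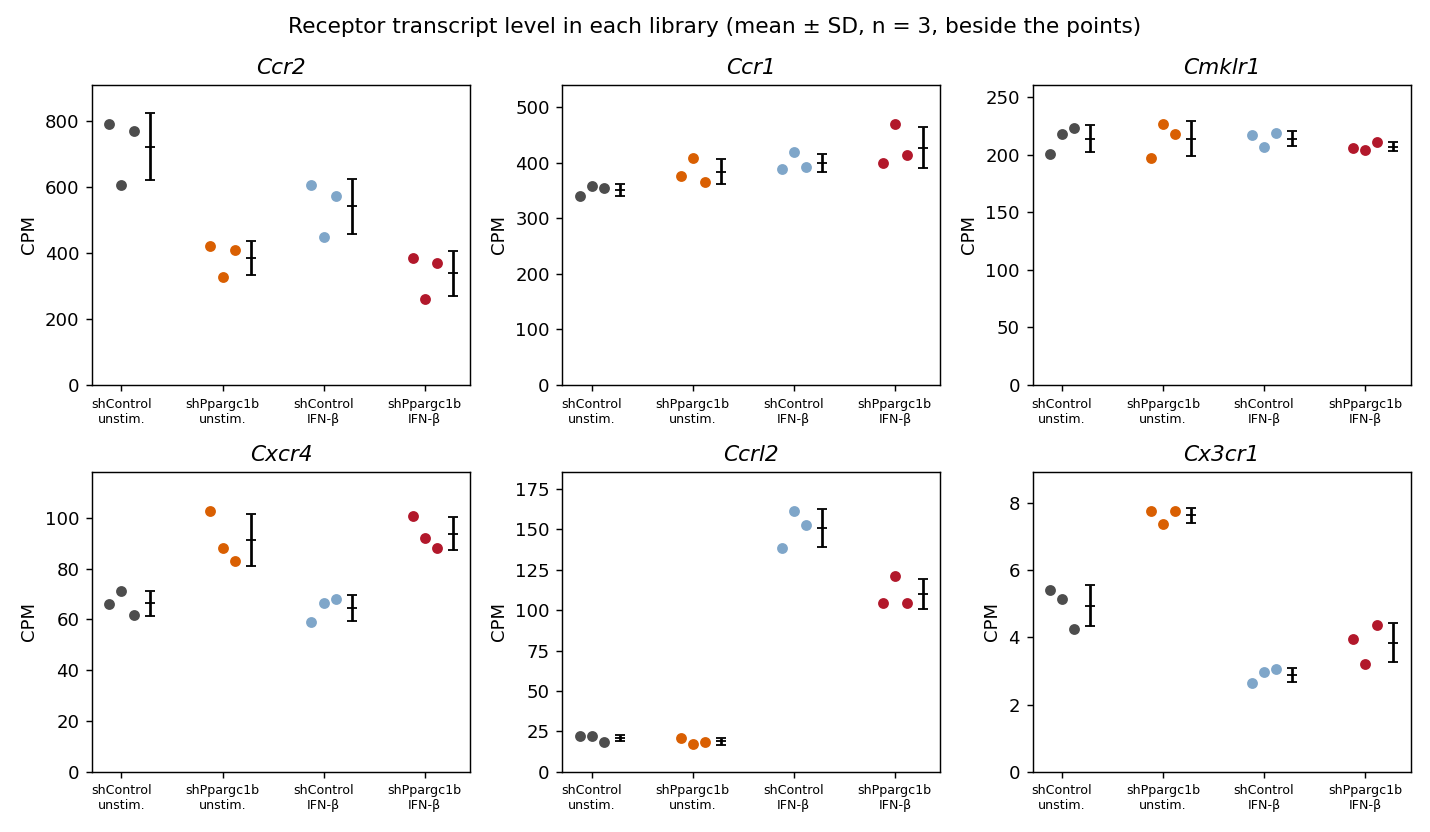
Transcript level in CPM (vertical axes, linear from 0) of the 6 receptors in each of the 12 libraries, by group, with the mean and SD of 3 libraries beside the points. *Ccr2* libraries of sh*Ppargc1b* cells (325.9 to 420.5 CPM unstimulated) sit below those of shControl cells (605.2 to 790.8 CPM), and *Ccrl2* stands at 104.5 CPM or more in every IFN-β library and at 22.4 CPM or less in every unstimulated one.

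*Ccr2* fell the most of the 6. The 3 unstimulated shControl libraries were at 791, 605 and 770 CPM, and the 3 unstimulated sh*Ppargc1b* libraries were at 421, 326 and 410 CPM. With IFN-β the shControl libraries were at 605, 448 and 573 CPM and the sh*Ppargc1b* libraries at 384, 260 and 370 CPM. Every knockdown library was below every control library of the same treatment. The log2 fold change of the knockdown was -0.91 ± 0.15 (SE, adjusted p = 0.000311) without IFN-β, or 53.4% of the control level, and -0.68 ± 0.15 (adjusted p = 0.00308) with IFN-β, or 62.4%. *Ccr2* supplied 47.3% to 55.5% of the counts of the 6 receptors in unstimulated shControl cells and 30.4% to 37.4% in unstimulated sh*Ppargc1b* cells, and the summed level of all 6 was 1280 to 1432 CPM and 1073 to 1125 CPM.

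The library codes in the labels form 3 runs of 4 consecutive codes, each with 1 library of every group, and the labels do not say what the order of the codes stands for. The lowest *Ccr2* library of every group belonged to the same run. Within the 3 runs the log2 difference between hairpins was -0.91, -0.89 and -0.91 without IFN-β and -0.65, -0.78 and -0.63 with it, so the differences varied less than the levels. *Cxcr4* differed by 0.64, 0.31 and 0.42 without IFN-β and by 0.78, 0.47 and 0.37 with it. *Cx3cr1* was less even, at 0.52, 0.52 and 0.87 without IFN-β and 0.57, 0.12 and 0.52 with it.

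**Figure D2:**
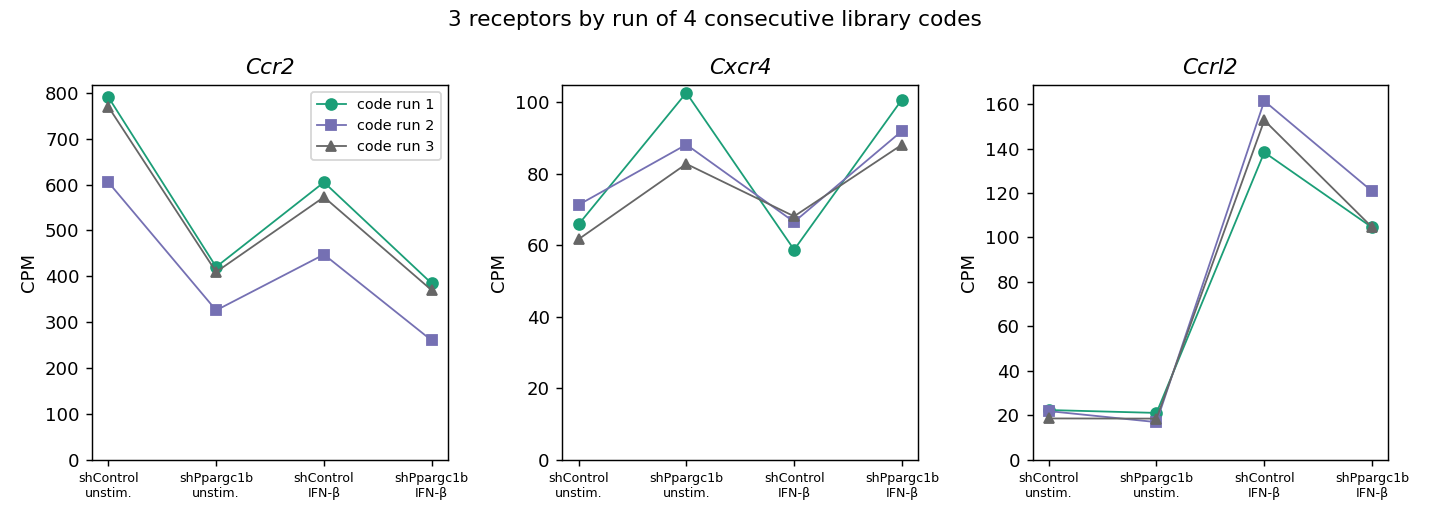
Levels in CPM (vertical axes, linear from 0) of *Ccr2*, *Cxcr4* and *Ccrl2* in the 4 groups, with lines joining the 4 libraries that carry consecutive codes. The *Ccr2* lines run side by side, with the second run lowest in every group (605.2, 325.9, 447.6 and 260.1 CPM from left to right).

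*Cxcr4*, the receptor for CXCL12, moved the other way. Unstimulated shControl libraries were at 65.8, 71.3 and 61.7 CPM and unstimulated sh*Ppargc1b* libraries at 103, 88.2 and 82.8 CPM. With IFN-β the values were 58.8, 66.6 and 68.1 CPM against 101, 92.0 and 88.2 CPM. The groups did not overlap under either treatment. The log2 fold change was 0.46 ± 0.080 (adjusted p = 0.000558) without IFN-β and 0.54 ± 0.080 (adjusted p = 0.000158) with it, or 137% and 145% of the control level.

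*Cx3cr1* was the scarcest receptor, with 123 to 562 counts in a library. It was at 5.42, 5.14 and 4.26 CPM in unstimulated shControl cells and at 7.77, 7.39 and 7.76 CPM in unstimulated sh*Ppargc1b* cells, a log2 fold change of 0.63 ± 0.12 (adjusted p = 0.00107). With IFN-β it was at 2.66, 2.97 and 3.05 CPM against 3.95, 3.22 and 4.37 CPM, a log2 fold change of 0.41 ± 0.13 (adjusted p = 0.0312). The groups did not overlap under either treatment, but the call with IFN-β did not hold in 6 of 18 alternatives: without shControl IFN-β replicate 1, 2 or 3 (adjusted p = 0.119, 0.073 and 0.0596), without sh*Ppargc1b* IFN-β replicate 1 or 3 (0.0923 and 0.163), and when only those groups were fitted (0.0511). The *Cx3cr1* span also holds the protein-coding genes *Csrnp1*, *Ttc21a*, *Gorasp1* and *Xirp1* in the annotation and overlaps *Wdr48*, and *Csrnp1* (log2 fold change 0.74, adjusted p = 1.76e-06) and *Ttc21a* (1.30, adjusted p = 0.000834) were higher in unstimulated sh*Ppargc1b* cells too. None of these genes shares exon bases with *Cx3cr1*.

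*Ccrl2* differed between hairpins with IFN-β, where shControl libraries were at 138, 161 and 153 CPM and sh*Ppargc1b* libraries at 104, 121 and 105 CPM. The groups did not overlap, and the log2 fold change was -0.46 ± 0.083 (adjusted p = 0.000799), or 72.9% of the control level. Without IFN-β the values were 22.4, 21.9 and 18.6 CPM against 21.1, 16.9 and 18.5 CPM, which overlapped (log2 fold change -0.16, adjusted p = 0.252). The difference between these knockdown effects was -0.30 ± 0.12 on the log2 scale and did not pass the test over all genes (unadjusted p = 0.0287, adjusted p = 0.395).

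*Ccr1*, a receptor of CCL3 and CCL5, was at 339, 358 and 355 CPM in unstimulated shControl cells and at 376, 409 and 366 CPM in unstimulated sh*Ppargc1b* cells. The groups did not overlap, but the log2 fold change of 0.13 ± 0.059 did not pass the test (adjusted p = 0.14), except when every gene with a count was kept (0.0202) or the runs of codes entered the fit as a block (0.0208). With IFN-β the values were 389, 419 and 393 CPM against 399, 470 and 413 CPM, which overlapped (log2 fold change 0.09, adjusted p = 0.282). *Cmklr1*, the chemerin receptor, had a mean of 213.8 CPM in both unstimulated groups, with libraries at 201, 218 and 223 CPM against 197, 226 and 218 CPM. With IFN-β its libraries were at 217, 206 and 218 CPM against 206, 204 and 211 CPM. The 95% confidence interval of its log2 fold change was -0.11 to 0.11 without IFN-β (adjusted p = 0.995) and -0.16 to 0.06 with it (adjusted p = 0.561).

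**Figure D3:**
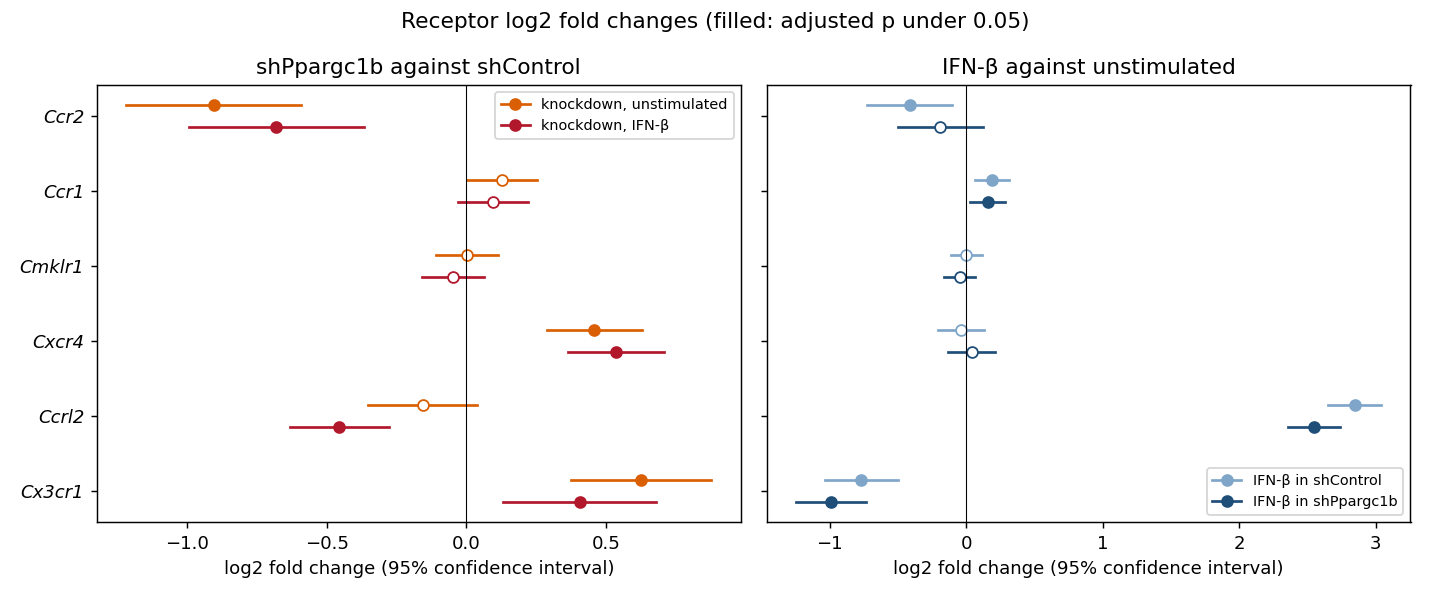
Log2 fold changes (horizontal axes) of the 6 receptors with 95% confidence intervals, for the knockdown under each treatment (left) and IFN-β in each hairpin (right), where filled points passed an adjusted p of 0.05. *Ccr2* lies left of 0 and *Cxcr4* and *Cx3cr1* right of 0 in both knockdown comparisons, and *Ccrl2* stands at 2.85 and 2.55 under IFN-β.

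The second question was how the receptors responded to IFN-β. *Ccrl2* rose in both hairpins and *Cx3cr1* fell in both, while *Ccr2* fell in shControl cells. In shControl cells 48.2% of all genes passed the test, 23.7% higher and 24.6% lower, beside 4 of the 6 receptors. In sh*Ppargc1b* cells 42.6% of all genes passed, 21.4% higher and 21.2% lower, beside 3 of the 6 receptors. When libraries were scaled by their totals alone, the median over all genes went from -0.03 to -0.27 on the log2 scale in shControl cells and from -0.02 to -0.22 in sh*Ppargc1b* cells, so small responses to IFN-β depend on the scaling.

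The rise of *Ccrl2* was 2.85 ± 0.091 on the log2 scale in shControl cells, 7.19-fold (adjusted p = 4.64e-13), and 2.55 ± 0.090 in sh*Ppargc1b* cells, 5.85-fold (adjusted p = 2.34e-12). *Cx3cr1* fell by 0.77 on the log2 scale in shControl cells (SE 0.13, adjusted p = 0.000106). In sh*Ppargc1b* cells it fell by 0.99 (SE 0.12, adjusted p = 7.2e-06). No IFN-β library overlapped an unstimulated library of the same hairpin for either gene.

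*Ccr2* fell by 0.41 on the log2 scale in shControl cells (SE 0.15, adjusted p = 0.0288), where the highest IFN-β library (605.1 CPM) and the lowest unstimulated one (605.2 CPM) stood next to each other. The call did not hold with DESeq2 (adjusted p = 0.0677), without shControl unstimulated replicate 1 or 3 (0.0876 and 0.0766), or without shControl IFN-β replicate 2 or 3 (0.175 and 0.053). The value was -0.27 without shControl IFN-β replicate 2, beside -0.39, -0.43 and -0.43 within the 3 runs of codes. In sh*Ppargc1b* cells the log2 fold change was -0.19 ± 0.15 (adjusted p = 0.334), and it passed with a block for each run (-0.20, adjusted p = 0.000544), with all genes kept (8.87e-05) and with library totals (0.0399).

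*Ccr1* was higher with IFN-β by 0.19 ± 0.059 on the log2 scale in shControl cells (adjusted p = 0.0148) and, with the other hairpin, by 0.16 ± 0.059 (adjusted p = 0.0447). It was at -0.05 in both under scaling by library totals, where the median of all genes was -0.27 and -0.22. The call in shControl cells did not hold without shControl unstimulated replicate 1 (adjusted p = 0.0925), and the call in sh*Ppargc1b* cells did not hold in 6 further alternatives, with adjusted p up to 0.208 without sh*Ppargc1b* IFN-β replicate 2, where the value was 0.09. *Cxcr4* was at -0.04 (adjusted p = 0.723) and 0.04 (adjusted p = 0.741) and *Cmklr1* at 0.00 (adjusted p = 0.994) and -0.05 (adjusted p = 0.496). Under library totals *Cxcr4* was at -0.28 in shControl cells (adjusted p = 0.00694) and -0.16 in sh*Ppargc1b* cells, and *Cmklr1* at -0.24 and -0.25 (adjusted p = 0.00113 and 0.000899), close to the shift of all genes. No receptor passed the interaction test, which asks whether the knockdown acted differently with and without IFN-β (positive values are higher with it) and which 0.73% of all genes passed, 0.0603% higher and 0.669% lower. The 6 receptors ranged from -0.30 (*Ccrl2*) to 0.23 (*Ccr2*) in that comparison.

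Levels were also compared between the receptors per kilobase of exon (RPKM from the exon bases of GENCODE M21). In unstimulated shControl cells the mean levels were 124 RPKM for *Ccr1*, 107 for *Ccr2*, 62.7 for *Cmklr1*, 36.7 for *Cxcr4*, 8.07 for *Ccrl2* and 1.10 for *Cx3cr1*, and no neighbours in this order overlapped. In unstimulated sh*Ppargc1b* cells *Ccr1* stood first at 135 RPKM, while *Cmklr1* (62.8 RPKM) overlapped *Ccr2* (57.0 RPKM), and *Ccr2* overlapped *Cxcr4* (50.5 RPKM). In IFN-β-treated shControl cells *Ccrl2* (58.0 RPKM) overlapped *Cmklr1* (62.8 RPKM) and stood above *Cxcr4* (35.7 RPKM). In IFN-β-treated sh*Ppargc1b* cells *Cxcr4* (51.8 RPKM), *Ccr2* (50.01 RPKM) and *Ccrl2* (42.3 RPKM) each overlapped the next. *Ccr1* was first and *Cx3cr1* last in all 4 groups. By CPM, with no length scaling, *Ccr2*, which has 6760 exon bases against 2833 for *Ccr1*, stood first in 3 of the 4 groups. In unstimulated sh*Ppargc1b* cells that order rested on means of 385.3 and 383.4 CPM, and the libraries of these receptors overlapped.

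Several ligands of the receptors were higher in sh*Ppargc1b* cells. Of 12 ligands, 10 were tested. Without IFN-β 7 were higher and 1 was lower, with a median log2 fold change of 0.87 (all genes 0.00), and with IFN-β 5 were higher and 1 was lower, with a median of 0.44 (all genes -0.01). In these comparisons 12.4% and 11.5% of all genes were higher, and 11.1% and 12.7% were lower. *Ccl2*, the principal CCR2 ligand, averaged 42.3 ± 6.27 CPM in the unstimulated controls and 74.7 ± 13.2 CPM in the unstimulated knockdown, a log2 fold change of 0.82 ± 0.13 (adjusted p = 0.00026), and it was higher by 0.77 with IFN-β (adjusted p = 0.000356). *Ccl12*, another CCR2 ligand, was higher by 1.84 without IFN-β (adjusted p = 0.00341, from 7 to 19 counts a library in the controls), and *Ccl7* was at 0.39 (adjusted p = 0.17, and 0.00224 with every gene with a count kept).

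Among the CCR1 ligands, *Ccl3* (log2 fold change 0.93 unstimulated, 0.67 under IFN-β) and *Ccl5* (1.47 and 0.615) were higher under both treatments, with adjusted p of at most 0.00015. *Ccl4*, a chemokine closely related to *Ccl3*, was higher by 0.99 and 0.58 (adjusted p = 4.69e-07 and 6.22e-05). *Ccl9* was higher by 0.20 without IFN-β (adjusted p = 0.0277), a call that did not hold without any 1 of the 3 shControl unstimulated libraries or without sh*Ppargc1b* unstimulated replicate 2 (0.11, adjusted p = 0.157). *Ccl6* was the ligand that was lower, by -0.49 and -0.38 on the log2 scale (adjusted p = 8.27e-06 and 0.000102), from a level of 5289 ± 233 CPM in unstimulated shControl cells. *Cx3cl1*, the ligand of CX3CR1, was at 15.2 ± 1.52 CPM against 44.3 ± 2.16 CPM without IFN-β and 21.1 ± 0.803 against 55.9 ± 1.26 CPM with it, log2 fold changes of 1.54 ± 0.065 and 1.40 ± 0.064 (adjusted p = 1.92e-09 and 6.23e-09). The ligand and its receptor were thus both higher in the knockdown under each treatment, but the *Cx3cr1* call with IFN-β did not hold in 6 of 18 alternatives.

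The other ligands were at very low levels. *Cxcl12*, the ligand of CXCR4, was at 0.143 to 0.219 CPM as group means and differed in neither knockdown comparison (adjusted p = 0.931 and 0.984). *Rarres2*, which encodes chemerin, had 0 to 6 counts in a library and *Ccl8* 0 to 6, and neither was tested. With IFN-β, 8 of the 10 tested ligands rose in shControl cells and 7 rose in sh*Ppargc1b* cells, beside 23.7% and 21.4% of all genes. *Ccl12* rose the most, by 6.01 and 4.47 on the log2 scale. Of all these rises, those of *Ccl9* and *Cx3cl1* in sh*Ppargc1b* cells did not pass under scaling by library totals (0.09, adjusted p = 0.226, and 0.13, adjusted p = 0.0769). That scaling moved the median of all genes in these cells from -0.02 to -0.22. *Ccl3* in sh*Ppargc1b* cells (0.20, adjusted p = 0.0508) passed in several alternatives, with DESeq2 (0.0267) and a block for each run (0.00727) among them. It was at 0.00 with library totals.

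**Figure D4:**
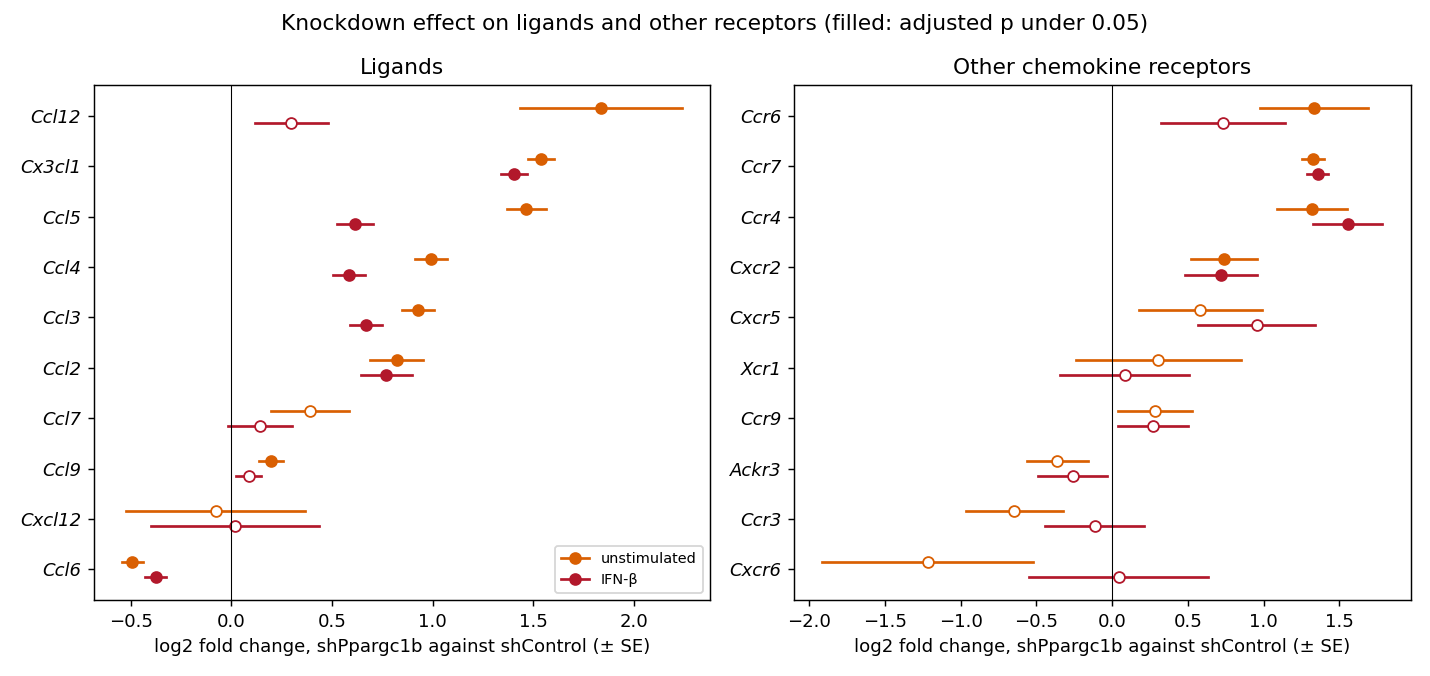
Log2 fold change of sh*Ppargc1b* against shControl with SE (horizontal axes) for the 10 tested ligands (left) and 10 other tested chemokine receptors (right), without and with IFN-β, where filled points passed an adjusted p of 0.05. *Cx3cl1* (1.54 and 1.40) and *Ccr7* (1.32 and 1.36) stand far right under both treatments, and *Ccl6* lies left of 0.

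Of the other chemokine and atypical chemokine receptors, 10 that were tested are described, and 4 of them were higher and none lower in the knockdown without IFN-β, with 3 higher and none lower under IFN-β. Among all genes 12.4% were higher and 11.1% lower without IFN-β, with 11.5% and 12.7% under IFN-β. *Ccr7*, which leads mature DCs to lymph nodes, was at 50.9 ± 2.37 CPM against 127.5 ± 4.92 CPM without IFN-β and at 81.2 ± 1.91 against 208 ± 26.8 CPM with it, log2 fold changes of 1.32 and 1.36 (adjusted p = 1.18e-08 and 1.22e-08). The study's own flow cytometry reported CCR7 protein as generally lower in PGC-1β-deficient DCs, opposite in direction to this transcript. *Ccr4* was higher in both comparisons from under 1 CPM in the controls (1.32 and 1.56), and so was *Cxcr2* (0.74 and 0.72), whose calls did not hold without sh*Ppargc1b* unstimulated replicate 3 (0.43, adjusted p = 0.15), without shControl unstimulated replicate 1 or 2, without any 1 of the 3 shControl IFN-β libraries, or without sh*Ppargc1b* IFN-β replicate 1 or 3 (0.54 without the latter, adjusted p = 0.167). *Ccr6* was higher without IFN-β (1.34, adjusted p = 0.0125) from 0.164 CPM, a call that did not hold without shControl unstimulated replicate 1 or 3 (adjusted p = 0.0543 and 0.0588) or sh*Ppargc1b* unstimulated replicate 3 (0.0618). *Ackr3*, the atypical receptor that takes up CXCL12, was at -0.36 and -0.26 without passing (adjusted p = 0.225 and 0.462, the former 0.0433 with every gene with a count kept), and it fell by 1.37 and 1.27 on the log2 scale with IFN-β (adjusted p = 5.82e-05 and 0.000197). *Ccr3* (-0.64 and -0.12), *Ccr9* (0.28 and 0.27), *Cxcr5* (0.58 and 0.95), *Cxcr6* (-1.22 and 0.04) and *Xcr1* (0.31 and 0.08) passed in neither knockdown comparison, but the value of *Cxcr5* with IFN-β (adjusted p = 0.088) passed with every gene with a count kept (0.0442), with only those groups fitted (0.0477) and without shControl unstimulated replicate 1 (0.0233).

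Of 14 receptors for other chemoattractants, 13 were tested, and 3 were higher and 5 lower in unstimulated sh*Ppargc1b* cells, with 4 higher and 5 lower under IFN-β. *S1pr1*, the sphingosine 1-phosphate receptor, had the largest difference (1.49 and 1.48), followed by the oxysterol receptor *Gpr183* (0.74 and 0.78) and, lower, *S1pr4* (-0.70 and -0.60). The *S1pr4* call without IFN-β did not hold without shControl or sh*Ppargc1b* unstimulated replicate 3 (adjusted p = 0.052 and 0.0744), and the call with IFN-β did not hold in 9 alternatives, with adjusted p up to 0.148 without shControl IFN-β replicate 3. *C5ar2*, a complement receptor, was higher by 0.70 with IFN-β (adjusted p = 8.09e-05). All 30 genes listed for signalling downstream of the receptors were tested, with 5 higher and 6 lower without IFN-β and 8 higher and 9 lower with it. Beside both lists, 23.6% of all genes passed without IFN-β and 24.2% with it. The largest differences were in *Rgs16* (1.37 and 1.14), *Rgs1* (0.97 and 0.82) and *Rgs18* (0.95 with IFN-β), regulators that shorten G protein signals, and in *Grk5* (-0.71 without IFN-β), a receptor kinase. Every gene named here in both comparisons passed in both (adjusted p of at most 0.0361).

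Other cell types could carry these receptors, and their markers are given beside the results. For comparison, 12.4% of all genes were higher and 11.1% lower in the knockdown without IFN-β, and 11.5% and 12.7% with it. Of 6 monocyte markers 2 were higher and 2 lower in unstimulated sh*Ppargc1b* cells, and their summed level was 2130 to 2490 CPM against 2340 to 2650 CPM. *Vcan* and *F13a1*, monocyte genes, were lower with *Ccr2* (-0.95 and -0.86 without IFN-β), while *Ly6c2*, the classical monocyte marker, was at 0.00 (adjusted p = 0.986) and *Chil3* was higher (0.30, adjusted p = 0.0365). With IFN-β 1 monocyte marker was higher and 2 were lower, and the sums were 2960 to 3290 CPM against 2910 to 3310 CPM. Of 8 macrophage markers none was higher and 2 were lower without IFN-β (*Mrc1* -1.51, *Mertk* -0.40), with sums of 2650 to 2780 CPM against 2420 to 2480 CPM, and 4 were lower with IFN-β, with sums of 3350 to 3570 CPM against 2950 to 3080 CPM. Of 7 tested dendritic markers 3 were higher and none lower in both comparisons (*Zbtb46* 0.61 and 0.65), with sums of 3500 to 4140 CPM against 3980 to 4570 CPM without IFN-β and 3750 to 4530 CPM against 4320 to 4930 CPM with it. The part of these markers in the receptor results was not tested.

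Markers of rarer cells were lower in level. Neutrophil markers summed to 39.5 to 87.3 CPM against 85.8 to 148 CPM without IFN-β and 36.8 to 92.4 CPM against 83.0 to 155 CPM with it, with 1 of 8 higher in each (*S100a8*). Mast cell and basophil markers summed to 8.71 to 16.6 CPM against 22.1 to 25.7 CPM and, with IFN-β, to 7.64 to 14.6 CPM against 12.8 to 21.1 CPM, with *Kit* and *Gata2* higher in each. The rest of that list, *Mcpt8*, *Cpa3*, *Fcer1a* and *Ms4a2*, passed in neither (0.02 to 0.36 without IFN-β and -0.85 to 0.36 with it). Of the 4 plasmacytoid markers *Tcf4* was higher without IFN-β and *Siglech* was near 0, and none of the 4 eosinophil markers passed (32.4 to 62.6 CPM against 22.9 to 43.6 CPM without IFN-β). Lymphocyte markers summed to at most 0.691 CPM and erythroid markers to at most 0.128 CPM in any library. Of 4 proliferation markers *Mki67* was lower without IFN-β (-0.53, adjusted p = 0.0137).

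Over the 12 libraries the genes whose log2 CPM ran most like each receptor were named, among 8750 or 8751 genes with a mean log2 CPM of at least 3. All correlations are descriptions over libraries that share the 4 groups. *Ccr2* ran most like *Sash3* (Pearson r = 0.972), *Ramp1* (0.967) and *Tns1* (0.966), and *Ramp1*, a receptor partner for the peptide CGRP, was lower in the knockdown by -1.38 and -1.04 on the log2 scale (adjusted p = 2.85e-06 and 6.55e-05). *Cxcr4* ran most like *Crebl2* (0.978), *Ptpn3* (0.964) and *S1pr1* (0.957). *Ccrl2* ran most like *Trim25* (0.999), *Tmem67* (0.998) and *Sema4d* (0.998), each of which rose with IFN-β and was lower in the knockdown under IFN-β. *Cx3cr1* ran most like *Npat* (0.968), *Lig3* (0.961) and *Atr* (0.961), and *Ccr1* like *B4galt1* (0.972), *Akirin1* (0.952) and *Golga7* (0.952). *Cmklr1* had no close partner, with 0.797 for *Gtf3c6* as its highest value, beside 0.789 for *Vps36* and 0.746 for *Gtf3c5*. Among the receptors themselves r was lowest for *Cx3cr1* with *Ccrl2* (-0.87), *Ccr1* with *Ccr2* (-0.82) and *Ccr2* with *Cxcr4* (-0.79).

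The annotated genes within 250 kb of the chromosome 9 receptors were listed as well. Between the hairpins 23.6% of all genes passed without IFN-β and 24.2% with it. Around *Ccr2* 6 of 12 were tested, and the long non-coding Gm39469 was higher in the knockdown without IFN-β (0.46, adjusted p = 0.00901) and with it (0.51, adjusted p = 0.00477). Around *Ccr1* 9 of 12 were tested, and none of them was higher in the knockdown under either treatment. Those that were lower included *Ccr2* under both treatments and *Lztfl1* with IFN-β (-0.21, adjusted p = 0.0166). *Ccr3*, which lies between *Ccr1* and *Ccr2*, was at 1.22 CPM against 0.787 CPM without IFN-β (log2 fold change -0.64, adjusted p = 0.177), and *Ccr1l1* had at most 10 counts in a library. Around *Ccrl2* 9 of 24 were tested, and the transcript Gm43814, 1.3 kb away, rose with IFN-β by 2.96 in shControl cells and 2.51 in sh*Ppargc1b* cells (adjusted p = 1.47e-08 and 1.37e-07), close to the rise of *Ccrl2*. Gm43814 is annotated on the same strand, past the 3′ end of *Ccrl2*, and whether its reads are separate from *Ccrl2* transcripts was not tested. *Ltf*, 11.7 kb from *Ccrl2*, was at 0.11 and 0.04 (adjusted p = 0.879 and 0.963). Around *Cx3cr1* 12 of 27 were tested, and 2 were higher and none lower in the knockdown without IFN-β.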

How the data were processed

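RNA-seq was measured in 12 libraries of mouse bone marrow-derived DCs, grouped by the hairpin and treatment in the labels. The deposited values were raw counts per gene, which the authors made from paired-end reads of ribosome-depleted RNA by trimming, mapping to GRCm38 (mm10) with STAR's gene counting and GENCODE annotation. The submitters' processing notes name Trim Galore 0.6.0 and STAR 2.7.8a. The strand setting was not given in the sources used here. All value columns were used. STAR's gene counts hold uniquely mapped read pairs only, so genes with near-identical copies can be undercounted.

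The analysis used edgeR 4.0.16 (R 4.3.3). Genes were kept by filterByExpr (minimum count 10, minimum total 15), which left 18228 genes with 99.96% of the counts, and library sizes were scaled by TMM. All 12 libraries entered one quasi-likelihood fit (glmQLFit) with a coefficient for each group, and glmQLFTest gave each contrast, with Benjamini-Hochberg adjustment over all genes tested, at 0.05. Every adjusted p comes from this test unless another tool is named. The procedure was tested on simulated data. CPM and RPKM use TMM-scaled library sizes. Same-group libraries differed by more than sampling noise (chi-square per degree of freedom of at least 8.11), so none was counted as a repeat. Totals of 49919648 to 77726101 counts give little counting error for the receptors except *Cx3cr1*.

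Genes named are the 6 receptors, *Ppargc1b*, the tested ligands and other chemokine receptors (those without a call mostly as counts), the 3 called genes with the largest change in each knockdown comparison of the other lists, the 3 genes most correlated with each receptor, and neighbours within 250 kb on chromosome 9. Marker genes, *Cd209a* among them, and the genes inside the *Cx3cr1* span were chosen for the text after their values were seen. Of the 6 receptors 6 matched the RefSeq promoter table. The receptors, lists and rules were chosen with earlier results of these data known. Alternatives were other scalings, no filter, DESeq2 1.42.0, a log2 limit, only the groups compared, the runs of library codes as a block and leaving out each library. Results for 1 listed receptor and 1 motif are not reported here.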

Additional observations from a re-analysis of the deposited data

Results flagged for a closer look

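*Ccl5*, a ligand of CCR1, differed in its knockdown effect between treatments. It was higher in sh*Ppargc1b* cells by 1.47 ± 0.098 on the log2 scale without IFN-β (22.5 against 62.3 CPM) and by 0.615 ± 0.091 with IFN-β (120 against 183.8 CPM), and the difference between these effects was -0.85 (SE 0.13, adjusted p = 0.0094 by edgeR's quasi-likelihood test). None of the other 9 tested ligands passed this test in the same fit, but 3 did under alternatives. *Ccl4* (-0.41, adjusted p = 0.122) passed with DESeq2 (0.0196), with the runs of codes as a block (0.0181), with every gene with a count kept (4.76e-06) and without sh*Ppargc1b* unstimulated replicate 1 (0.0434). *Ccl12* (-1.54, adjusted p = 0.151) passed with DESeq2 (0.0463) and with every gene kept (5.78e-07), and *Ccl3* (-0.26, adjusted p = 0.422) with every gene kept (0.0059). For *Ccl5* every knockdown library was above every control library under each treatment.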

How the results depend on the processing

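The knockdown calls of *Ccr2* and *Cxcr4* under both treatments, of *Cx3cr1* without IFN-β and of *Ccrl2* with it, and the IFN-β calls of *Ccrl2* and *Cx3cr1* in both hairpins, kept their direction and side of the threshold in all 18 alternatives of scaling, filter, tool, block and libraries. A log2 limit of 1 left 644, 576, 1935, 1397 and 9 genes (knockdown without and with IFN-β, IFN-β in shControl and sh*Ppargc1b*, interaction) and 0, 0, 1 and 1 receptors, since only *Ccrl2* under IFN-β exceeds it. Interaction genes numbered 84 with library totals, 525 with all genes of at least 1 count, 452 with DESeq2 and 425 with the block, and 36 to 271 with 1 library left out (36 without shControl unstimulated replicate 3, 271 without sh*Ppargc1b* IFN-β replicate 2), beside 133, and the cause was not tested. With all genes kept, 1 receptor (*Ccrl2*, -0.31, adjusted p = 0.0172) passed the interaction. Receptors called for IFN-β in shControl numbered 2 to 4 with 1 library left out, the lowest without shControl unstimulated replicate 1. The fit to all genes includes many genes with almost no counts.

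With library totals, *Ccr1* was at -0.05 under IFN-β in both hairpins and 0.00 in the interaction, *Cxcr4* at -0.16 in sh*Ppargc1b* and *Cmklr1* at -0.24 in shControl under IFN-β and -0.01 in the knockdown without it, and with all genes kept *Cmklr1* was at -0.01 in shControl under IFN-β. Scaling by totals put the median of all genes under IFN-β at -0.27 in shControl and -0.22 in sh*Ppargc1b* cells. With 1 library left out, direction also turned in values near 0: *Cmklr1* knockdown without IFN-β (-0.04 to 0.06), *Cxcr4* under IFN-β in shControl (-0.11 to 0.04) and in sh*Ppargc1b* (-0.03 to 0.13), *Cmklr1* under IFN-β in shControl (-0.06 to 0.05), and the interactions of *Ccr1* (-0.12 to 0.04) and *Cmklr1* (-0.09 to 0.02). Other changed calls of the 6 receptors stand beside their results. With all genes kept *Ccl12* also passed in the knockdown with IFN-β (0.31, adjusted p = 0.0291). Same-run libraries deviated together weakly (r of 0.0276 to 0.146, median 0.0867, 5 of 18 pairs over 0.1). Pairs from different runs were lower (r of -0.154 to 0.0565, median -0.0436, 0 of 36 over 0.1). The labels do not tie the runs to cultures, so the block was an alternative. With the block the *Ccr2* interaction was at adjusted p = 0.0535, beside 0.806 without it. The lowest counts, those of *Cx3cr1* (123 to 562), *Cxcl12* and *Rarres2*, limit what can be detected.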
